A study of Mus musculus with 6 samples.

Results

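The genes of the eukaryotic translation initiation factors were examined in leptotene/zygotene (L/Z) spermatocytes of control and Eef1g-cKO mice. They were taken as every protein-coding row of the count table whose symbol starts with Eif1, Eif2, Eif3, Eif4, Eif5 or Eif6, without the eIF2 kinases (Eif2ak). This gave 51 genes of the 54532 in the table, of which 47 passed the filter on low counts and were tested among 8513 genes. The choice rested on names and not on values, so it also took in genes with other functions, such as Eif4a3, a core component of the exon junction complex, and Eif5a, which acts mainly in elongation and termination.

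RNA-seq libraries came from spermatocytes sorted from testes at 12 days postpartum (dpp), 3 control libraries (genotype labelled wild type) and 3 Eef1g-cKO libraries. In the knockout, part of Eef1g, which encodes the gamma subunit of the elongation factor 1 complex, was removed from a floxed allele by Stra8-GFPCre, which acts in male germ cells from spermatogonia onward, on a C57BL/6J background. Littermates served as controls, whose labelled genotype does not say whether they carried the floxed allele or Cre. The labels do not say that each library came from a separate animal, so p-values measure the spread between these libraries, which may be technical. The libraries held 763133 to 2617648 reads assigned to genes, and the shallowest, Eef1g-cKO replicate 3, also had the highest share of ribosomal RNA reads (9.23%, against 2.73% to 6.29% in the other 5).

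Initiation is the step in which a ribosome is placed on the start codon of an mRNA. eIF2, a complex of alpha, beta and gamma subunits, carries the initiator tRNA to the small ribosomal subunit and is recharged with GTP by eIF2B. eIF1, eIF1A, eIF3 and eIF5 act on the small subunit during scanning, the eIF4 factors bring in capped mRNA, and eIF5B joins the large subunit. In spermatocytes many transcripts are stored and translated later, and several of these factors have testis-biased or sex-linked copies.

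Most initiation factor genes did not pass the test between the genotypes. Of the 47 tested, 5 were higher in Eef1g-cKO (Eif2s2, Eif1, Eif4enif1, Eif2s3y and Eif3c), 2 were lower (Eif3h and Eif4a3) and 40 had an adjusted p of 0.05 or more (edgeR quasi-likelihood test, adjusted by Benjamini-Hochberg over all tested genes). The share called higher was 10.6%, beside 7.80% of all tested genes, and the share called lower was 4.26%, beside 6.01%. With an added limit of 1 on the absolute log2 fold change, only Eif2s2 and Eif1 of the members remained higher, beside 3.42% of all tested genes, and 0 remained lower, beside 4.96%. CPM values (counts scaled to a library of 1e+06 reads) were separate between control and Eef1g-cKO in 16 of the 47 genes, 8 in each direction. That is 34.0%, beside 34.5% of all tested genes. In these bulk libraries, fewer cells of a type and less RNA per cell cannot be told apart. The median log2 fold change of the 47 was −0.10, with a range from −0.81 to 1.37, beside a median of −0.05 for all tested genes. The split of the calls depended on the scaling of the libraries, for the members as for all genes: 5 members were higher and 5 lower with upper-quartile scaling, beside 5.44% and 7.51% of all tested genes, and 4 higher and 5 lower with library totals alone, beside 3.91% and 7.55%. Without Eef1g-cKO replicate 3, 7 were higher and 4 lower, beside 8.57% and 6.86% of all genes then tested, and 0 were lower without control replicate 1, 2 or 3, beside 2.52%, 2.73% and 2.74% of all genes, or without Eef1g-cKO replicate 2, beside 6.38%. A gene without a call is not thereby shown to be unchanged.

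**Figure D1:**
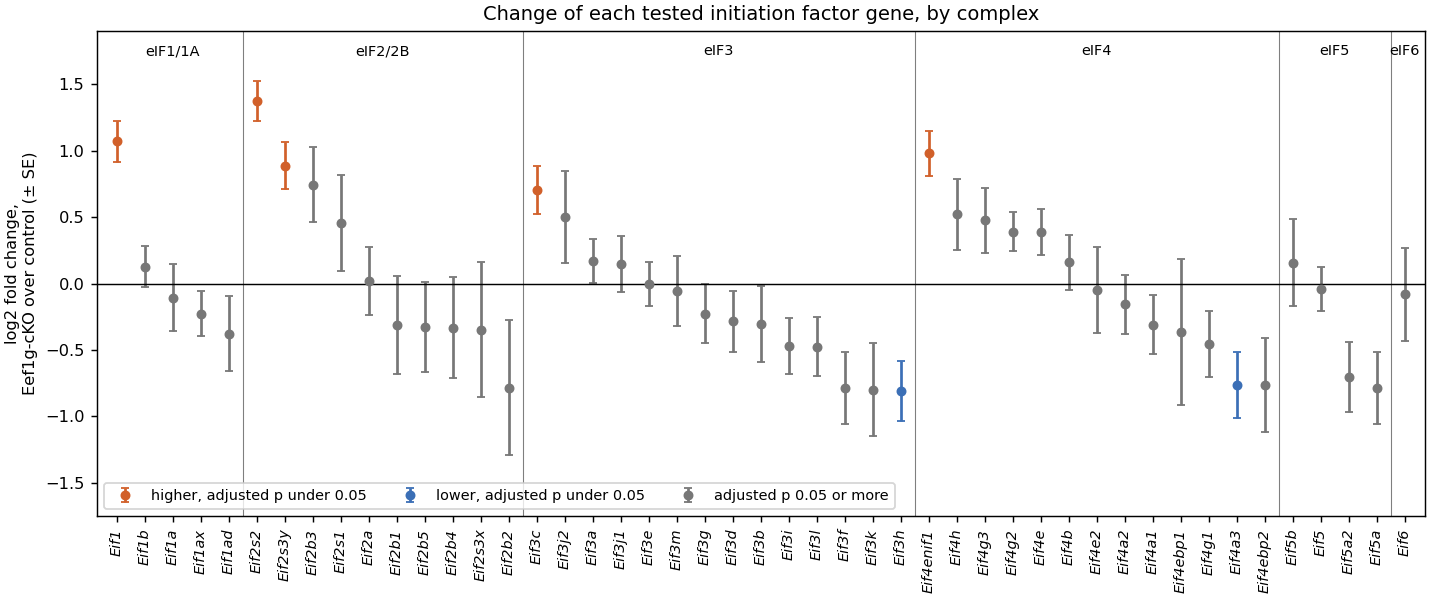
Log2 fold change of Eef1g-cKO over control for each of the 47 tested initiation factor genes (vertical axis, points with ± SE from the edgeR fit), grouped by complex along the horizontal axis and ordered by size within it. The genes called higher are orange and those called lower blue. Eif2s2 has the largest value, 1.37, and most eIF3 genes lie below 0.

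The sequence around the annotated start is shown for the called genes that have a RefSeq entry (assembly GRCm38.p6), and for Eif2s3x, the X-linked partner of Eif2s3y, because the messages of many translation factors begin with a run of pyrimidines through which mTOR signalling controls their translation. Each window runs 5′ to 3′ from 50 bases before the start to 29 after it, and capitals mark the longest unbroken run of C and T that reaches into the 10 bases on either side of the start. Eif3h has no entry. The windows lie at chr2:154892877-154892956 on the minus strand for Eif2s2, chrY:1010545-1010624 on the plus strand for Eif2s3y, chrX:94212622-94212701 on the minus strand for Eif2s3x, chr11:100319899-100319978 on the plus strand for Eif1, chr7:126566337-126566416 on the minus strand for Eif3c, chr11:3202303-3202382 on the plus strand for Eif4enif1 and chr11:119300014-119300093 on the minus strand for Eif4a3.
Eif2s2: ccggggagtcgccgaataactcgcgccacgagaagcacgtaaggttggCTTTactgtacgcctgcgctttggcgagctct
Eif2s3y: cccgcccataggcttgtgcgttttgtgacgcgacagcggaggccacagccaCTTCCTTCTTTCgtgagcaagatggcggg
Eif2s3x: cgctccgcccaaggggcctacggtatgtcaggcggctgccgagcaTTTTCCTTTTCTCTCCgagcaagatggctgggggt
Eif1: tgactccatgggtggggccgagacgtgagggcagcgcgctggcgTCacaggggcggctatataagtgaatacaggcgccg
Eif3c: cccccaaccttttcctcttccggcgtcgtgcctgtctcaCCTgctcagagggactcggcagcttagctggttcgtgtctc
Eif4enif1: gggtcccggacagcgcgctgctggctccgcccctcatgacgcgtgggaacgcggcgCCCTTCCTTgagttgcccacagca
Eif4a3: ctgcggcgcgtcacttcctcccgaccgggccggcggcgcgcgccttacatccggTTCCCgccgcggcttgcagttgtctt
The run was 12 bases in Eif2s3y, 16 in Eif2s3x and 9 in Eif4enif1. It was 5 in Eif4a3, 4 in Eif2s2, 3 in Eif3c and 2 in Eif1. A run near the start need not hold the start itself, and in Eif2s3y and Eif4enif1 it lies after the annotated start base. A gene with such a run is thus not shown to have a message that begins with it. The start used is the most upstream one listed for each gene, and the starts used in these cells were not measured. Among the 39 initiation factor genes with an entry, 8 (20.5%) had a run of at least 8 bases there, beside 13.8% of all 27025 promoters in the table. The 8 were Eif2b2, Eif2b5, Eif2s3x, Eif2s3y, Eif3f, Eif3l, Eif3m and Eif4enif1. Of them 2 were called, both higher. Among the 47 tested members 10.6% were higher and 4.26% lower, and among all tested genes 7.80% and 6.01%. Over the whole 300 bases of each promoter, the letters CCGGAAGT (ETS-type) were found on either strand in 6 of the 39 genes (15.4%, beside 3.99% of all promoters), TGATGNAA (ATF4-type) in Eif2s3x alone (2.56%, beside 4.06%) and TGACGTCA (CRE) in none, beside 1.85%. None of the 6 with CCGGAAGT (Eif2b2, Eif2b4, Eif3d, Eif3l, Eif4e2 and Eif5a2) was called. Beside the shares called above, 8 or 6 genes are too few to relate the letters to the calls. The 27025 promoters were not limited to genes tested here and were not matched to the members in GC content. A higher share among the members is therefore not shown to be particular to initiation factor genes. None of these strings contains another. A match describes the letters only and is not a binding site, and no match says only that the letters are not in that window.

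The targeted gene was lower in the Eef1g-cKO libraries. Eef1g had 222, 226 and 212 CPM in the control libraries and 139, 151 and 119 CPM in the Eef1g-cKO libraries (log2 fold change −0.68, SE 0.20, adjusted p = 0.029, edgeR). The values do not overlap. The count is per gene and does not separate the deleted exons from the others. With a GC content offset, an alternative added after seeing the data, the log2 fold change was −0.42 and the adjusted p 0.19, and the adjusted p was 0.084 to 0.121 without control replicate 1, 2 or 3 or Eef1g-cKO replicate 1.

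Of the 10 tested eIF2 and eIF2B genes 2 were higher, both of eIF2 itself, and none was lower (median log2 fold change −0.14). Eif2s2 encodes eIF2 beta (chromosome 2, 154871410 to 154892935, minus strand). Its level was 1822, 1458 and 1487 CPM in the control libraries and 3613, 3766 and 4984 CPM in the Eef1g-cKO libraries. Every Eef1g-cKO library was above every control library, by 2.59-fold in the fit (log2 fold change 1.37, SE 0.15, adjusted p = 1.2e-05, edgeR). Its share of all reads on the 51 genes was 13.1% to 15.5% in control and 24.6% to 31.5% in Eef1g-cKO. The summed CPM of the 51 genes was 11096 to 11729 in control and 14700 to 15827 in Eef1g-cKO, and without Eif2s2 it was 9609 to 9907 and 10843 to 11087. A processed pseudogene, Gm9892, shares 193 aligned bases at 99.5% identity with Eif2s2 and carried 1395 reads, or 5.55% of those on Eif2s2. It was also higher in Eef1g-cKO (log2 fold change 1.60, adjusted p = 9.8e-04, edgeR), and how reads that match both were assigned is not stated.

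Of the other eIF2 genes, only Eif2s3y passed the test. Eif2s1 encodes eIF2 alpha, the subunit phosphorylated under stress, and had 53.4, 127 and 98.5 CPM in control and 104, 204 and 68.0 CPM in Eef1g-cKO. These values overlap, and the gene was not called (log2 fold change 0.46, SE 0.36, adjusted p = 0.45). Eif2s3y, the Y-linked gene of eIF2 gamma (chromosome Y, 1010543 to 1028847, plus strand), is known to be needed for proliferation of spermatogonia. It had 334, 308 and 356 CPM in control and 715, 656 and 468 CPM in Eef1g-cKO. The groups do not overlap, and the gene was 1.85-fold higher (log2 fold change 0.89, SE 0.18, adjusted p = 0.0025). Its X-linked partner Eif2s3x had 26.7, 37.8 and 28.5 CPM in control and 20.2, 11.4 and 46.3 CPM in Eef1g-cKO (log2 fold change −0.35, SE 0.51, adjusted p = 0.71), values that overlap. The summed gamma level of both genes was 346 to 385 CPM in control and 514 to 735 CPM in Eef1g-cKO, and Eif2s3y gave 91.4% ± 2.0 (SD, n = 3) of the pair's reads in control and 95.5% ± 4.0 in Eef1g-cKO. This share overlapped between the genotypes (difference 4.1 percentage points, exact 2-sided permutation p = 0.3, 0.6 after adjustment over 8 paralogue pairs). The reads of Eif2s3x and the share are uncertain, since the processed pseudogene Gm2223 is identical to Eif2s3x over 1350 aligned bases. Gm2223 carried 24 reads, beside 242 on Eif2s3x, and how reads that match both were assigned is not stated.

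Per length, the eIF2 genes were far from equal. In control, Eif2s2 had 235 ± 29.9 CPM per kilobase (SD, n = 3), Eif2s3y 79.9 ± 5.8 and Eif2s1 18.8 ± 7.5. In Eef1g-cKO the values were 610 ± 111, 147 ± 31.0 and 25.3 ± 14.3. The order of Eif2s2 and Eif2s3y held in both genotypes beyond the sum of neighbouring SDs, whereas Eif2s1 lay within the spread of the next gene in the order. Length is that of the annotated gene model, and lengths of the transcripts present were not measured.

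**Figure D2:**
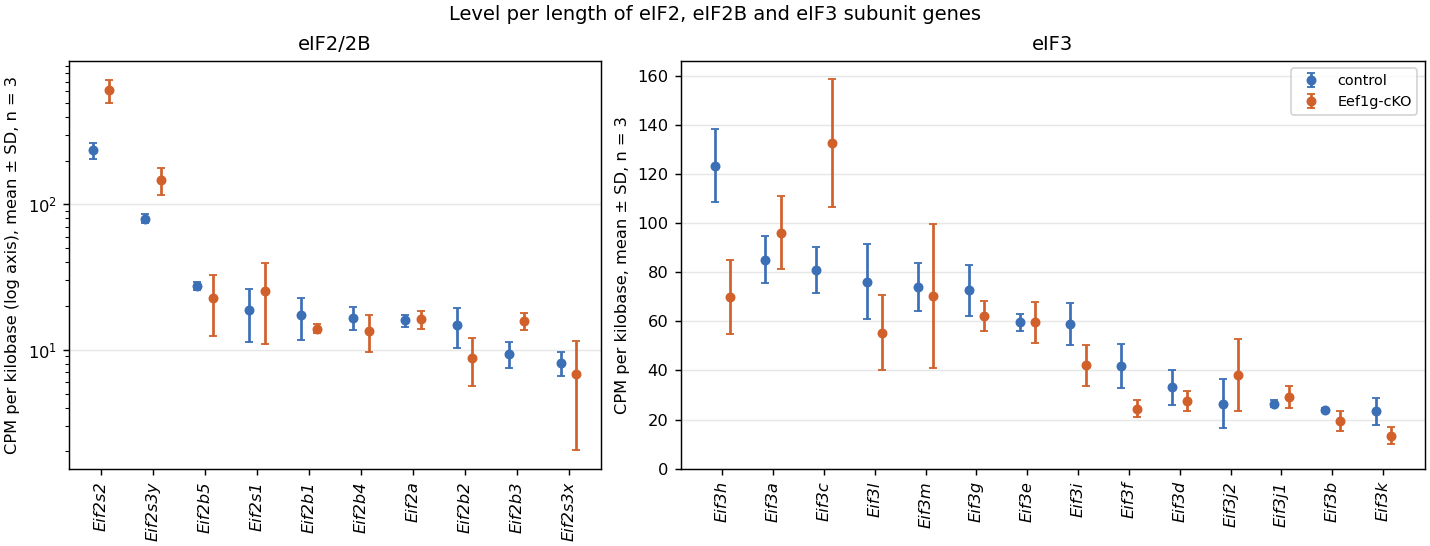
Level per length of the tested eIF2/2B genes (left, log axis) and of the eIF3 genes (right, linear axis) in CPM per kilobase, as mean ± SD of 3 libraries, with control in blue and Eef1g-cKO in orange, ordered by the control level. Eif2s2 is at 235 CPM per kilobase in control and 610 in Eef1g-cKO, and among the eIF3 genes Eif3h has the highest mean in control and Eif3c in Eef1g-cKO.

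eIF2B, the guanine nucleotide exchange factor of eIF2 and a complex of alpha to epsilon subunits, had no called gene among its 5. Their log2 fold changes were −0.78 for Eif2b2, −0.33 for Eif2b4, −0.33 for Eif2b5, −0.31 for Eif2b1 and 0.74 for Eif2b3, with a median of −0.33. The reads of Eif2b4 are uncertain, since Snx17 on the other strand carried 76 reads beside the 349 of Eif2b4. Eif2b5, the catalytic epsilon subunit, had 67.9, 69.3 and 76.1 CPM in control and 55.8, 33.7 and 86.5 CPM in Eef1g-cKO (SE 0.34, adjusted p = 0.58). Those values overlap. Eif2b3, the gamma subunit, stood apart from the other 4 in sign and had 67.9, 47.2 and 68.3 CPM in control and 103, 89.0 and 117 CPM in Eef1g-cKO. Its groups do not overlap, but the adjusted p was 0.088 (edgeR), and it passed 0.05 with limma-voom (adjusted p = 0.039). Eif2a, an initiator tRNA factor that is not a subunit of eIF2, had 97.3 ± 9.26 CPM in control and 99.4 ± 14.3 in Eef1g-cKO (log2 fold change 0.02, SE 0.25). It overlaps Serp1 on the other strand, which carried 349 reads beside the 901 of Eif2a. Eif2d, another initiator tRNA factor, averaged 6.31 CPM in control and was not tested.

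**Figure D3:**
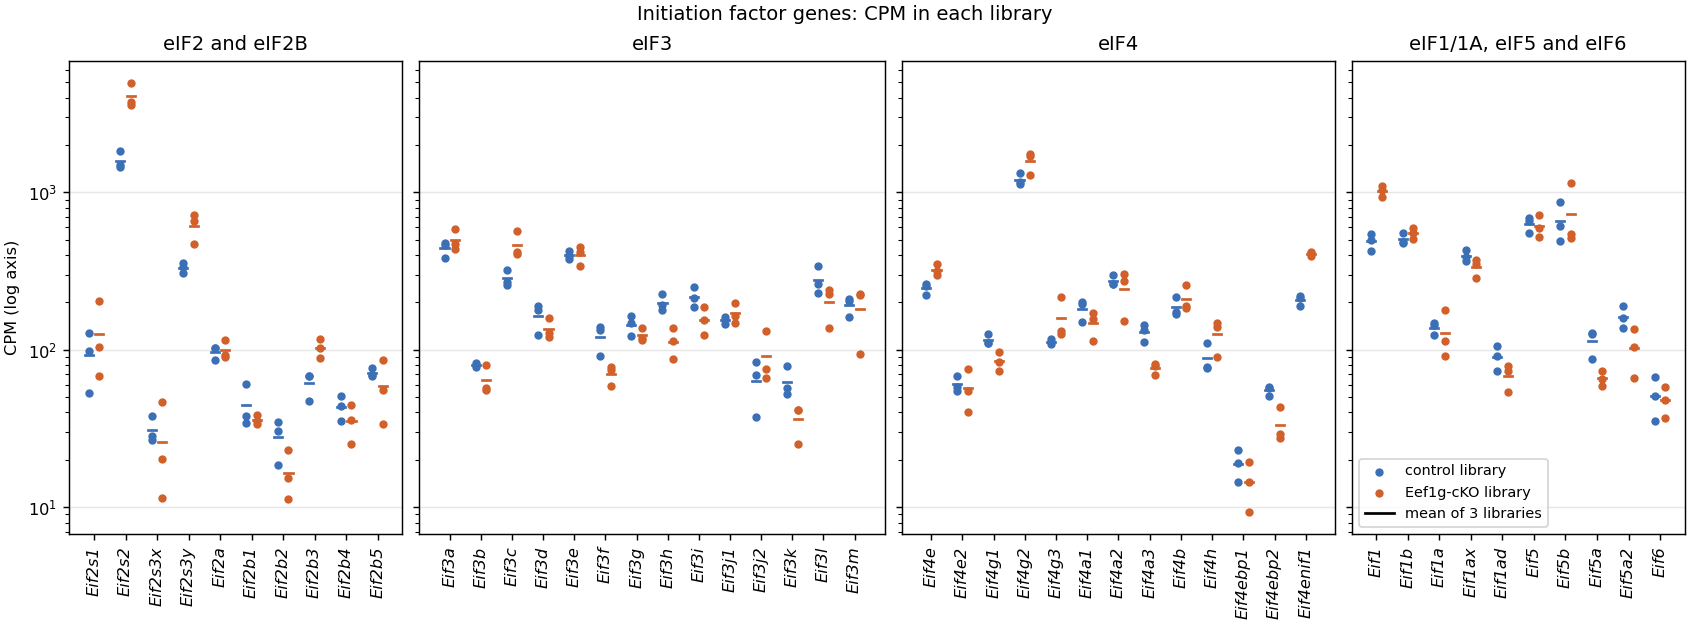
CPM on a log axis in each library for the 47 tested initiation factor genes, in panels for eIF2/2B, eIF3, eIF4 and the eIF1/1A, eIF5 and eIF6 genes, with control in blue, Eef1g-cKO in orange and a bar at the mean of 3 libraries. The Eef1g-cKO points of Eif2s2, Eif1, Eif4enif1, Eif2s3y and Eif3c lie above all control points, and those of Eif3h and Eif4a3 lie below them.

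eIF1 and eIF1A bind the small ribosomal subunit and set the accuracy of start codon choice. Eif1 (chromosome 11, 100319885 to 100322096, plus strand) had 541, 501 and 426 CPM in control and 1098, 1043 and 939 CPM in Eef1g-cKO. Without overlap, it was 2.10-fold higher (log2 fold change 1.07, SE 0.15, adjusted p = 1.6e-04, edgeR). Stretches at least 95% identical to it occur in 13 other annotated genes, which together carried 4.79% as many reads, 169 of their 338 on Emd. The values of its close paralogue Eif1b overlapped, at 550, 480 and 485 CPM in control and 509, 592 and 550 CPM in Eef1g-cKO (log2 fold change 0.13, SE 0.15, adjusted p = 0.65, edgeR). The Eif1b share of the pair's reads was 50.4%, 48.9% and 53.2% in control and 31.7%, 36.2% and 36.9% in Eef1g-cKO. That is 50.9% ± 2.2 against 34.9% ± 2.9 (SD, n = 3), a shift of −15.9 percentage points without overlap. An exact 2-sided permutation test gave p = 0.1, the lowest possible with 3 libraries a genotype, and 0.4 after Benjamini-Hochberg adjustment over the 8 pairs compared. Per length, Eif1b was at 449 CPM per kilobase and Eif1 at 233 in control, and both were at 489 in Eef1g-cKO. The eIF1A gene Eif1ax had 364, 390 and 431 CPM in control and 371, 351 and 287 CPM in Eef1g-cKO (log2 fold change −0.23, SE 0.17, adjusted p = 0.42). Its values overlap, as do those of Eif1a (log2 fold change −0.10) and Eif1ad (−0.38). The reads of Eif1ad are uncertain, since Banf1 is identical to it over 428 aligned bases and carried 1384 reads, beside 767 on Eif1ad.

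eIF3, the largest initiation complex, holds the small subunit open for mRNA and was represented by 14 genes, all of them tested. One was higher, 1 was lower and 12 did not pass the test. The fold changes were below 0 for 10 of the 14 (median −0.25), and the summed eIF3 level was 2696 to 2960 CPM in control and 2556 to 2873 CPM in Eef1g-cKO, ranges that overlap. Eif3c, a core scaffold subunit (chromosome 7, 126546455 to 126566411, minus strand), had 321, 271 and 259 CPM in control and 416, 409 and 571 CPM in Eef1g-cKO. It was 1.63-fold higher with no overlap (log2 fold change 0.71, SE 0.18, adjusted p = 0.013, edgeR). It was not called with library totals alone, or without control replicate 2 or control replicate 3, where the adjusted p reached at most 0.077. Eif3h, a peripheral subunit (chromosome 15, 51786558 to 51865523, minus strand), had 179, 193 and 226 CPM in control and 137, 114 and 88.0 CPM in Eef1g-cKO. Here every Eef1g-cKO library was below every control library (log2 fold change −0.81, SE 0.22, adjusted p = 0.021). The call was lost with a gene length or GC content offset and without any 1 control library or Eef1g-cKO replicate 2, with adjusted p up to 0.17.

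The remaining eIF3 genes ran from −0.80 to 0.50 on the log2 scale. Eif3a, the other core scaffold subunit, had 474, 466 and 383 CPM in control and 439, 469 and 585 CPM in Eef1g-cKO (log2 fold change 0.17, SE 0.17, adjusted p = 0.56). Eif3b, the subunit that anchors the g and i subunits, had 80.1, 77.7 and 82.8 CPM in control and 55.8, 80.0 and 57.1 CPM in Eef1g-cKO (log2 fold change −0.30, SE 0.29, adjusted p = 0.54). Both genes overlap between the genotypes. Eif3f and Eif3k did not overlap and were lower in value in Eef1g-cKO, with log2 fold changes of −0.78 (adjusted p = 0.061) and −0.80 (adjusted p = 0.14, edgeR), and neither was called. Eif3f was called in 5 of 20 alternatives, among them upper-quartile scaling, limma-voom and the one without Eef1g-cKO replicate 3. Eif3j1 had 147, 162 and 154 CPM in control and 198, 165 and 148 CPM in Eef1g-cKO (log2 fold change 0.15, SE 0.21, adjusted p = 0.70). It is 99.4% identical to Eif3j2 over 2379 aligned bases, so the split of reads between these genes is uncertain. Eif3m is uncertain as well, since Ccdc73 on the other strand carried 1872 reads beside the 1889 of Eif3m and the pseudogene Gm7658 carried 484. Per length, Eif3h was highest in control at 124 ± 14.8 CPM per kilobase (SD, n = 3), ahead of Eif3a at 85.2 ± 9.7 and beyond the sum of their SDs. In Eef1g-cKO, Eif3c came first at 133 ± 26.1 and Eif3h was at 70.0 ± 15.1, and no neighbours in the order differed beyond the sum of their SDs.

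The eIF4 genes, with 13 of 16 tested, had 1 higher, 1 lower and 11 without a call (median log2 fold change −0.05). Eif4enif1 encodes 4E-T, an eIF4E-binding protein of processing bodies and of repressed mRNA (chromosome 11, 3202392 to 3244588, plus strand). It had 189, 214 and 219 CPM in control and 415, 418 and 392 CPM in Eef1g-cKO. The groups do not overlap, and the gene was 1.97-fold higher (log2 fold change 0.98, SE 0.17, adjusted p = 8.4e-04, edgeR). It overlaps Drg1 on the other strand, which carried 586 reads and did not pass the test (log2 fold change −0.50, adjusted p = 0.49). Eif4a3 (chromosome 11, 119288363 to 119300089, minus strand), a helicase of the eIF4A family, had 112, 134 and 143 CPM in control and 68.7, 81.6 and 78.8 CPM in Eef1g-cKO. It was 1.70-fold lower without overlap (log2 fold change −0.76, SE 0.25, adjusted p = 0.047), and was called in 9 of 20 alternatives. The call was lost without control replicate 1, 2 or 3 or Eef1g-cKO replicate 1 or 2, with adjusted p up to 0.34 over all alternatives.

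The cap-binding and scaffold genes did not pass the test. Eif4e, the cap-binding protein, had 253, 222 and 263 CPM in control and 350, 316 and 300 CPM in Eef1g-cKO, which do not overlap (log2 fold change 0.39, SE 0.17, adjusted p = 0.15, edgeR). Of the scaffolds, Eif4g1 had 127, 110 and 111 CPM in control and 73.6, 83.5 and 97.3 CPM in Eef1g-cKO (log2 fold change −0.46, SE 0.25, adjusted p = 0.25). Eif4g3 had 118, 109 and 112 CPM in control and 127, 132 and 218 CPM in Eef1g-cKO (log2 fold change 0.48, SE 0.25, adjusted p = 0.22). Neither scaffold gene overlapped between the genotypes, and their fold changes had opposite signs. The Eif4g3 share of the pair's reads was 48.1%, 49.8% and 50.2% in control and 63.3%, 61.3% and 69.1% in Eef1g-cKO, or 49.4% ± 1.1 against 64.6% ± 4.1 (SD, n = 3; difference 15.2 percentage points, exact 2-sided permutation p = 0.1, 0.4 after adjustment over the 8 pairs). Eif4g2, a scaffold relative that lacks the eIF4E-binding part, had 1129, 1324 and 1161 CPM in control and 1697, 1741 and 1297 CPM in Eef1g-cKO, which overlap at replicate 3 (log2 fold change 0.39, SE 0.15, adjusted p = 0.087). It was called without Eef1g-cKO replicate 3 and with limma-voom.

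The helicase Eif4a1 had 195, 151 and 200 CPM in control and 171, 114 and 158 CPM in Eef1g-cKO (log2 fold change −0.31, SE 0.22, adjusted p = 0.40, edgeR). Its values overlap, as do those of its paralogue Eif4a2 and the cofactors Eif4b and Eif4h. The reads of Eif4a2 and its share of the pair are uncertain, since Rfc4 on the other strand carried 1352 reads beside the 2582 of Eif4a2. Eif4h, with a log2 fold change of 0.52, was called with a GC content offset and without Eef1g-cKO replicate 3. Among the inhibitory eIF4E-binding proteins, Eif4ebp1 had 19.1, 23.1 and 14.6 CPM in control and 19.4, 14.5 and 9.27 CPM in Eef1g-cKO (log2 fold change −0.37, SE 0.55, adjusted p = 0.72). Eif4ebp2 had 58.0, 50.9 and 57.1 CPM in control and 29.1, 27.4 and 43.2 CPM in Eef1g-cKO, which do not overlap (log2 fold change −0.77, SE 0.35, adjusted p = 0.17). Eif4ebp3 and Eif4e1b had 0 reads in every library, which at a limit of 3 reads allows up to 1.18 to 4.63 CPM, and Eif4e3 had 30 reads in all. For Eif4ebp3 this limit does not account for reads shared with Ankhd1, which overlaps it on the same strand and carried 3891 reads, since how such reads were assigned is not stated.

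**Figure D4:**
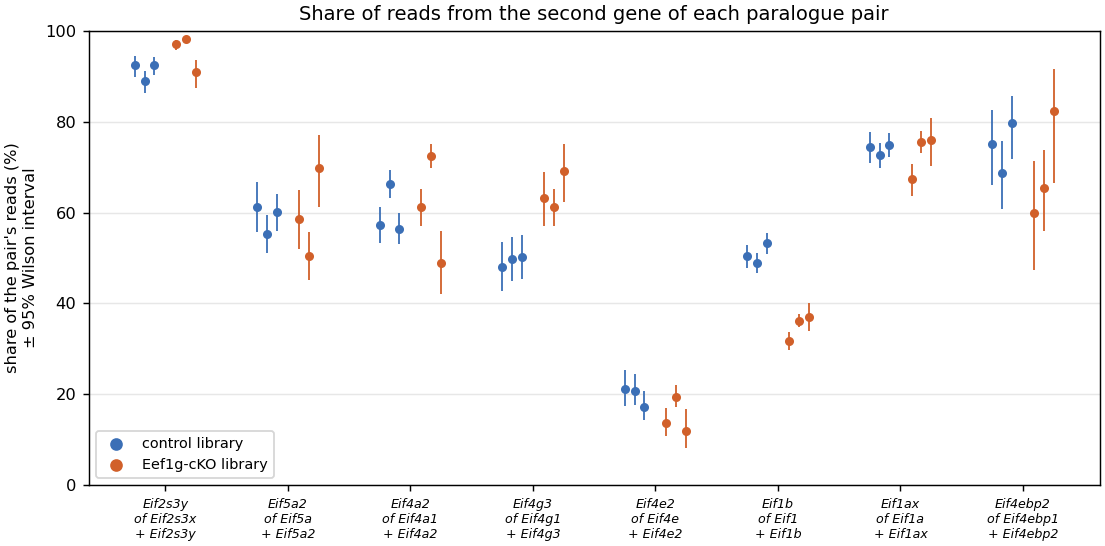
Share of the reads of 8 paralogue pairs that fall on the second gene (vertical axis in percent), one point per library with its 95% Wilson interval, which covers counting error only, with control in blue and Eef1g-cKO in orange. The Eif1b share is 48.9% to 53.2% in control and 31.7% to 36.9% in Eef1g-cKO, the Eif4g3 share is 48.1% to 50.2% and 61.3% to 69.1%, and the other pairs overlap.

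The eIF5 genes, 4 in all, had no call (median log2 fold change −0.37). Eif5, the GTPase-activating protein of eIF2, had 549, 654 and 688 CPM in control and 598, 714 and 521 CPM in Eef1g-cKO (log2 fold change −0.04, SE 0.16, adjusted p = 0.90, edgeR). Eif5b, the subunit-joining GTPase, had 863, 609 and 488 CPM in control and 541, 512 and 1146 CPM in Eef1g-cKO (log2 fold change 0.16, SE 0.33, adjusted p = 0.81). Both overlap, with Eef1g-cKO replicate 3 the highest of all libraries for Eif5b. The reads of Eif5b are uncertain, since Rev1 on the other strand is identical to it over 421 aligned bases. Rev1 carried 491 reads beside the 5880 of Eif5b. Eif5a and Eif5a2 had log2 fold changes of −0.79 (SE 0.27, adjusted p = 0.062) and −0.70 (SE 0.26, adjusted p = 0.087) without overlap. Eif5a2 was called in 7 of 20 alternatives and Eif5a in 4. Both were called with upper-quartile scaling, library totals, a minimum of 10 reads per library and limma-voom. Eif5a2 was also called with a GC content offset, alone or with the replicate block, and without Eef1g-cKO replicate 3. Eif5a had 87.0, 128 and 126 CPM in control and 73.6, 65.1 and 58.7 CPM in Eef1g-cKO. Eif6, which keeps the large subunit from joining too early, had 35.1, 67.2 and 50.9 CPM in control and 47.7, 58.4 and 37.1 CPM in Eef1g-cKO (log2 fold change −0.08, SE 0.35, adjusted p = 0.91).

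**Figure D5:**
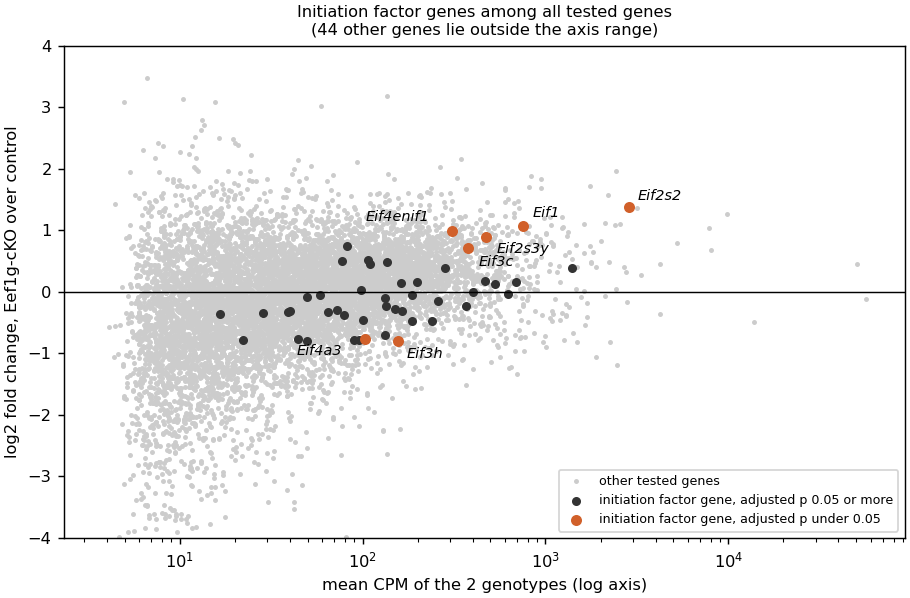
Log2 fold change of Eef1g-cKO over control (vertical axis) against the mean CPM of the genotypes (horizontal log axis) for all 8513 tested genes in grey, with the 40 uncalled initiation factor genes in black and the 7 called ones in orange with their names; 44 other genes lie outside the plotted range. Eif2s2 and Eif1 are the members called above 1, and no member is lower by more than 1 on the log2 scale.

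Mean reads per library of the 5 higher genes were at least 480, and the median over the 40 uncalled genes was 198. Across the 47 members the log2 fold change had a Pearson r of −0.40 with transcript GC content, 0.37 with log2 gene length and 0.45 with log2 control CPM. These are across genes, which share libraries, and over all tested genes Spearman's rho was −0.30, 0.08 and 0.17, beside −0.44, 0.43 and 0.41 over the members.

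Most other genes of the initiation pathway, 37 in a list of regulators, were not called either. Of the 31 tested, 27 had no call, 2 were higher and 2 lower, 6.45% in each direction, beside 7.80% and 6.01% of all tested genes. Leaving out control replicate 3 left 0 in each direction, beside 4.42% and 2.74% of all genes then tested. Leaving out any other library gave 1 to 3 higher and 1 or 2 lower, beside 4.08% to 8.57% and 2.52% to 6.86%. Paip2b, an inhibitor of poly(A)-binding protein, had 105, 97.6 and 85.1 CPM in control and 184, 231 and 134 CPM in Eef1g-cKO (log2 fold change 0.95, SE 0.24, adjusted p = 0.012, edgeR). Ddx3y, the Y-linked DEAD-box helicase, had 218, 178 and 223 CPM in control and 366, 303 and 315 CPM in Eef1g-cKO (log2 fold change 0.67, SE 0.18, adjusted p = 0.019). Both are higher without overlap. Cyfip1, a repressor that binds eIF4E, had 61.8, 52.0 and 77.2 CPM in control and 29.9, 19.2 and 18.5 CPM in Eef1g-cKO (log2 fold change −1.49, SE 0.37, adjusted p = 0.012, edgeR). Pabpc4, a poly(A)-binding protein gene, had 138, 99.2 and 115 CPM in control and 77.6, 56.5 and 35.5 CPM in Eef1g-cKO (log2 fold change −1.02, SE 0.30, adjusted p = 0.028, edgeR). Both are lower without overlap. Pabpc1, the main poly(A)-binding protein, was at 2952 and 2645 CPM on average and was not called. Of the eIF2 kinases, Eif2ak1, Eif2ak3 and Eif2ak4 were tested and none passed.

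Markers of several cell types differed between the genotypes. Summed markers of leptotene and zygotene cells were 10251 to 11862 CPM in control and 22540 to 29154 CPM in Eef1g-cKO, with 8 of 11 tested genes higher and none of the 12 at 0 in every library. Spermatogonial markers were 1387 to 1595 and 673 to 797 CPM (4 of 5 tested lower), markers of pachytene and later cells 25.7 to 42.7 and 0 to 17.6 CPM (1 of 2 tested lower) with Acr and Adam3 at 0 in all libraries, Sertoli markers 85.5 to 311 and 1.54 to 46.1 CPM (2 of 4 tested lower), peritubular and stromal markers 129 to 239 and 12.4 to 51.0 CPM (3 of 4 tested lower), Leydig markers 8.40 to 10.7 and 1.57 to 6.47 CPM with Cyp17a1 and Hsd3b1 at 0, and blood markers 4.48 to 64.1 and 1.18 to 18.5 CPM with Cd68 and Csf1r at 0. The blood sums overlapped between the genotypes, and no Leydig or blood marker passed the filter for testing. Over all tested genes 7.80% were higher and 6.01% lower. Some markers called lower passed the low-count filter only through the control libraries, so a lower call was nearly the only one open to them. Piwil1, for example, had 34, 22 and 30 reads in control and 0, 1 and 0 in Eef1g-cKO. Cldn11 had 21, 58 and 35 reads in control and 5, 1 and 0 in Eef1g-cKO. The part of these cell types in the changes of the initiation factor genes was not tested.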

How the data were processed

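RNA-seq was done on L/Z spermatocytes sorted by Hoechst staining, with full-length cDNA amplification. Per the labels and the study's methods, the authors trimmed reads with fastp, aligned them with HISAT2 to mm10 (GRCm38) and counted reads per gene with featureCounts, and they deposited a table of raw counts for 54532 genes. Strand and multimapping settings are not given in the sources used here. DESeq2 is also named in the submitters' processing notes.

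Counts were analysed with edgeR (4.0.16) in R (4.3.3): TMM scaling, a low-count filter, and a robust quasi-likelihood fit on genotype with 3 libraries each, called at an adjusted p under 0.05. The filter asked for the CPM that equals 10 reads at the median library size, in at least 3 libraries, and 15 reads in total. A tested gene can thus have fewer than 10 reads in some libraries. Error values on fold changes are SE. CPM used scaled library sizes, and CPM per kilobase used the length column. Library totals were 763133 to 2617648. Paralogue shares carry 95% Wilson intervals and exact permutation tests. The alternatives included DESeq2 (1.42.0) and limma (3.58.1). The fit was tested on simulated data. The values showed no pairing of libraries by replicate number (correlations of deviations −0.037, 0.019 and −0.049). This does not show whether libraries of the same number were paired by design, which the labels do not state.

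All 51 members could be named. Values in every library and full statistics are given for those called and for a list of core members, and others by counts. The members, core members, regulators and markers were chosen with earlier results of these data known. Copies and overlaps of genes were searched at 95% identity over 150 bases, and promoters were read from RefSeq.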

Additional observations from a re-analysis of the deposited data

How the results depend on the processing

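Of the 7 called genes, Eif1, Eif2s2 and Eif4enif1 were called in all 20 alternatives, Eif2s3y in 19, Eif3c in 17, Eif3h in 12 and Eif4a3 in 9, and no called value changed sign. The initiation factor genes called higher (5) numbered 2 with the fold change limit, beside 3.42% of all tested genes, and 7 with limma-voom, beside 10.4%. They numbered 6 with a GC content offset, beside 6.59%, and 4 with this offset and the replicate block, beside 5.03%. At an unadjusted p under 0.05 they numbered 8. The share of all genes at an unadjusted p was not computed, so the counts at that limit have nothing to stand beside. Those called lower (2) numbered 5 with upper-quartile scaling, library totals, a minimum of 10 reads per library or limma-voom. The shares of all genes then tested were 7.51%, 7.55%, 7.2% and 7.69%. They numbered 1 without a filter, beside 2.37%, and 1 with a replicate block, beside 4.43%. With a gene length offset they numbered 0, alone (beside 5.07%) or with the block (beside 4.16%). With a GC content offset they numbered 1, alone (beside 4.41%) or with the block (beside 3.49%). They numbered 0 with the fold change limit, beside 4.96%, and 9 at an unadjusted p. Leaving out 1 library gave 4 to 7 higher and 0 to 4 lower, beside 4.08% to 8.57% and 2.52% to 6.86% of all genes. The extremes were 7 and 4 with Eef1g-cKO replicate 3 left out, and 0 lower without control replicate 1, 2 or 3 or Eef1g-cKO replicate 2. Regulators called higher (2) numbered 1 with upper-quartile scaling, at least 10 reads, or a GC offset alone or with the block. The shares of all genes called higher were then 5.44%, 8.78%, 6.59% and 5.03%. They numbered 0 with library totals, beside 3.91%, or the fold change limit, beside 3.42%. Regulators called lower (2) numbered 1 with a GC offset alone (beside 4.41%) or with the block (beside 3.49%) and 5 at an unadjusted p. Leaving out 1 library gave 0 to 3 higher and 0 to 2 lower regulators, beside the shares of all genes given for the members. The median log2 fold change of the members was −0.23 with upper-quartile scaling, −0.29 with library totals, −0.23 with at least 10 reads, −0.036 with a length offset and −0.021 with a GC offset, and −0.17 to −0.054 with 1 library left out; upper-quartile scaling and library totals moved the median of all genes to −0.17 and −0.24, whereas with a minimum of 10 reads it was −0.0039, and without a filter the members were at −0.062 and all genes at −0.30. Without length correction the eIF3 levels spanned 7.02-fold. Eef1g was −0.64 (adjusted p = 0.084, edgeR) without a filter, −0.69 (0.058) with the block, −0.55 (0.068) with a length offset, −0.56 (0.115) with both, −0.42 (0.19) with a GC offset and −0.43 (0.26) with GC and block, and −0.75 to −0.56 with 1 library left out. The block was fitted on replicate numbers, by which the values showed no pairing of the libraries, and a pairing by design is not stated. The GC offsets were added after seeing the data. The causes were not tested.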
